A study of Astyanax mexicanus with 14 samples.

Results

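The most abundant transcripts of whole Mexican tetra (Astyanax mexicanus) larvae were taken as the genes with a mean of at least 1000 normalised counts per mega-count of library total (CPM) over the 7 control libraries and a mean log2 CPM difference between cave and surface controls above -3 and below 2.5. There were 125 such genes among the 19076 in the table. The bounds on the difference left out none of the genes that passed the level, so the members were chosen by their control level alone, and that level is a description here. The lowest 3 inside it were gapdh, ENSAMXG00000035780 and ENSAMXG00000000766, with control means of 1030 (gapdh), 1020 and 1013 CPM, and the 3 just outside were rps16 with 984, ckbb with 977 and ENSAMXG00000007438 with 968 CPM. All 125 genes had counts in every library and all were tested in each comparison.

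The larvae were 6 days post-fertilization and each library was a pool of 4 whole larvae. Cavefish of the Pachón population gave 3 libraries collected 90 min after 60 s of UV-B (replicates 1, 2 and 4) and 3 control libraries (replicates 2, 3 and 4), and surface fish gave 4 UV-B and 4 control libraries, the controls of each population having had 60 s of white light. Total counts were between 7.42 and 15.26 M (mega-counts) per library, and the smallest count of any of the 125 genes in any library was 3578, so counting error was small beside the spread between pools. P-values are from the quasi-likelihood test of edgeR, adjusted over all genes tested by the Benjamini-Hochberg method and called under 0.05, and they measure the spread between such pools. Because a pool holds whole bodies, fewer cells of a type and less RNA per cell cannot be told apart. Muscle transcripts were among the highest of these genes (acta1b and mylz3), while the heart marker myl7 stayed between 3.65 and 33.4 CPM.

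A small number of genes usually supplies a large part of the messenger RNA of a growing larva. Ribosomal protein genes encode the structural proteins of the ribosome, and in vertebrates their transcripts carry a shared motif at the start that couples their translation to growth signals. Translation factors, contractile proteins of skeletal muscle, glycolytic enzymes, mitochondrial ATP synthase and its carriers, constitutive chaperones and cytoskeletal proteins are other products that most larval cells, or muscle cells, make in bulk. UV-B light damages DNA and stalls transcription, and Pachón cavefish are a blind population of the same species as the river-dwelling surface fish.

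The files identify genes by Ensembl ID. Names were taken from the gene tables of the study's UV-B analysis and from its methods, which named 55 of the 125 genes and left 70 with an ID only. Because those tables list genes by their response to UV-B, a named gene is more often a UV-B call by its selection. All 55 named members were called in surface fish, and counts over the named genes are not independent evidence of the direction of a UV-B response. Of 14 gene lists by symbol, 8 held a member. The cytosolic ribosomal proteins were the longest with 33 genes, followed by translation factors with 4, glycolysis, oxidative phosphorylation with mitochondrial carriers, and cytoskeleton with 3 each, muscle and chaperones with 2 each, and redox and iron with 1 (fth1a). The list of translation factors includes tpt1, whose name (translationally controlled tumor protein) is not that of a factor. The named genes outside the lists were ybx1, NME2, arhgef16 and si:dkey-159f12.2. No named member belonged to crystallins, photoreceptors, keratins and epidermis, lipid transport and digestive tract, haemoglobins, or immediate early and stress transcription factors.

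The 125 genes supplied a large share of every library. They took 44.8%, 40.6% and 45.8% of the counts of the cave UV-B libraries, against 33.9%, 39.6% and 38.8% of the cave control libraries. The cave groups did not overlap, and the means were 43.7% ± 2.73 after UV-B and 37.4% ± 3.05 in controls (SD, n = 3 each). In surface fish the share was 34.1%, 32.0%, 33.1% and 33.95% after UV-B, against 29.8%, 29.5%, 28.7% and 30.9% in controls, again without overlap. Cave control replicate 2 (33.9%) was the only cave library within the range of the surface UV-B libraries (32.0% to 34.1%). The 33 ribosomal protein genes alone took 10.9% ± 0.758 in cave UV-B and 8.64% ± 0.772 in cave control libraries (SD, n = 3 each), and 7.32% ± 0.610 in surface UV-B and 5.89% ± 0.228 in surface control libraries (SD, n = 4 each). These shares are relative to the other transcripts, and the amount of RNA per larva was not measured.

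**Figure D1:**
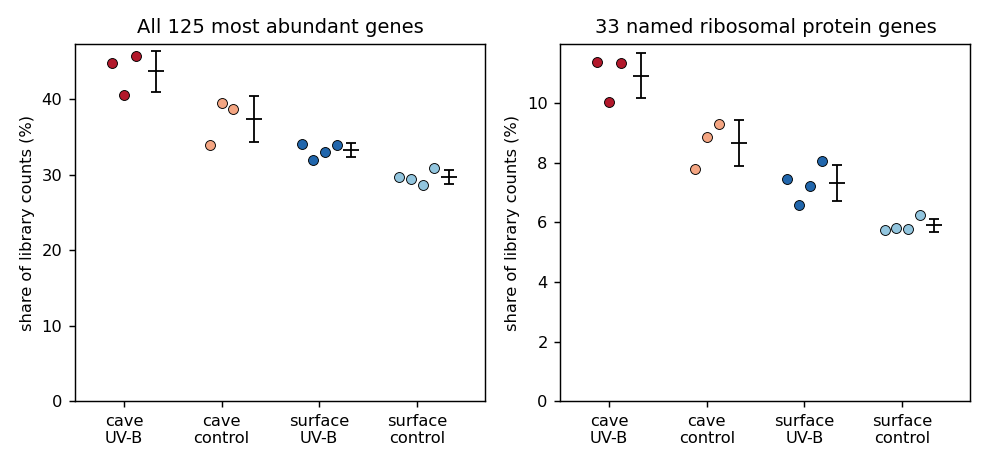
Share of each library's counts, in percent, taken by the 125 most abundant genes (left) and by the 33 named ribosomal protein genes (right). Points are libraries, and the bar beside each group is its mean with the SD (n = 3 cave, n = 4 surface). The 125 genes took between 40.6% and 45.8% of the cave UV-B libraries and between 28.7% and 30.9% of the surface control libraries.

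The list of the most abundant genes was nearly the same in every library, although the control libraries themselves defined the members. Of the 125 highest genes of a library, between 113 and 116 were members in cave UV-B libraries and between 118 and 119 in cave controls, against between 111 and 115 in surface UV-B libraries and between 114 and 116 in surface controls. The most abundant gene was ENSAMXG00000012734, which has no name in the sources used here. It had 27385, 20391 and 28569 CPM in cave UV-B libraries, against 14425, 22338 and 20650.2 CPM in cave controls. In surface fish it had 17361, 14953, 15447 and 13107 CPM after UV-B, against 13742, 11809, 12092 and 13785 CPM in controls. The UV-B and control groups overlapped in each population, and neither difference was called (log2 fold change 0.41, adjusted p = 0.229 in cavefish, and 0.24, adjusted p = 0.0824 in surface fish).

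UV-B exposure in surface fish was compared first. Of the 125 genes, 94 (75.2%) were higher after UV-B, 1 was lower and 30 were not called, where 13.4% of all 15523 genes tested were called higher and 15.4% lower. The members were chosen by their level in the same control libraries that enter the UV-B comparisons and the interaction, so choice and test are not independent there. With the 153 genes chosen by the same threshold in the UV-B libraries instead, 77.1% were called higher in surface fish and 69.9% in cavefish. That choice is not independent either, because the UV-B libraries enter the same tests and choosing by them favours genes higher after UV-B. The median log2 fold change over the 125 genes was 0.41, against 0.0010 over all genes tested and 0.13 over the 1317 genes between 100 and 1000 CPM in controls, of which 32.1% were called higher. The UV-B and control libraries did not overlap for 63 of the 125 genes, where 27.9% of all genes did so. The changes were small, and only ENSAMXG00000009870 passed 2-fold. Without surface control replicate 3 the share called higher was 61.6%, and without surface control replicate 4 it was 81.6%.

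In cavefish 85 of the 125 genes (68%) were higher after UV-B and 0 were lower, where 12.6% of all 15244 genes tested were called higher and 13.8% lower. At an unadjusted p under 0.05, 95 were higher and 0 lower, and the share of all genes at that threshold was not computed here. DESeq2 and limma-voom also called 0 members lower. The median log2 fold change was 0.61, and 28.6% of the 1316 genes between 100 and 1000 CPM were called higher. The cave groups did not overlap for 93 genes, where 41.4% of all genes did so. The number called higher rested on single libraries: leaving out cave UV-B replicate 1 brought it to 12 of 125, leaving out cave UV-B replicate 4 to 22 and leaving out cave control replicate 3 to 50, although between 124 and 125 of the estimates stayed positive each time. The share of all genes called higher was 7.37% without cave UV-B replicate 1, 7.52% without replicate 4 and 9.1% without cave control replicate 3. Of the members, 81 were called higher in both populations, 13 in surface fish alone and 4 in cavefish alone, which is no test of a difference between them. The same shares over all genes were not computed, so these joint counts have no background.

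The values depend on the scaling. With library totals in place of TMM factors the median of all genes moved to -0.33 in the cave comparison and -0.18 in the surface comparison on the log2 scale. The 125 genes then had a median of 0.29 in cavefish, with 50 called higher and 0 lower, and of 0.23 in surface fish, with 63 called higher and 4 lower. Of all genes tested, library totals called 4.74% higher and 26.8% lower in cavefish, and 5.15% higher and 26.9% lower in surface fish. With TMM factors computed without the 125 genes the medians were 0.62 in cavefish and 0.42 in surface fish. Under library totals the named lists kept positive medians in each population, but their names come from UV-B tables, which favours called genes. Among the listed genes the estimates under 0 were those of mylz3 (-0.06) and actb2 (-0.17) in cavefish. In cavefish 25 of 33 ribosomal protein genes, 3 of 4 translation factors, 3 of 3 mitochondrial genes, 1 of 3 glycolysis genes, 0 of 2 muscle genes and 0 of 3 cytoskeleton genes were then called higher. In surface fish 33 of 33 ribosomal protein genes, 2 of 4 translation factors, 1 of 3 mitochondrial genes, 2 of 3 glycolysis genes, 0 of 2 muscle genes and 2 of 3 cytoskeleton genes were called higher.

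**Figure D2:**
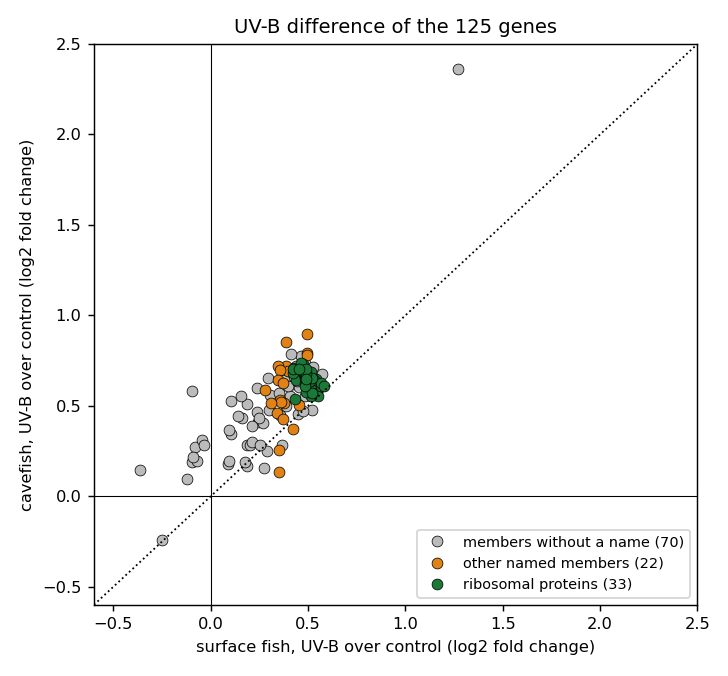
Log2 fold change of UV-B over control for each of the 125 genes in cavefish (vertical) against surface fish (horizontal), by edgeR with TMM scaling, and the dotted line marks equal values. The 33 ribosomal protein genes have a median of 0.65 in cavefish and 0.49 in surface fish, and ENSAMXG00000009870 stands at 2.36 in cavefish and 1.27 in surface fish.

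The ribosomal protein genes had values close to each other. The gene rpl13a encodes a protein of the large subunit and is often used as a reference gene in quantitative PCR. It had 4220.5, 3322 and 4474 CPM in cave UV-B libraries, against 2122, 2693 and 2794 CPM in cave controls. In surface fish it had 2262, 1742, 2141 and 2552 CPM after UV-B, against 1487, 1491, 1478 and 1706 CPM in controls. The UV-B libraries lay above the controls of their population each time, and surface UV-B replicate 2 and cave UV-B replicate 2 were the lowest of their groups. The log2 fold change of rpl13a was 0.66, SE 0.18, adjusted p = 0.0156 in cavefish and 0.50, SE 0.11, adjusted p = 0.00255 in surface fish. Without cave UV-B replicate 1 its adjusted p in cavefish was 0.0748.

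All 33 ribosomal protein genes were called higher after UV-B in each population. In cavefish their log2 fold changes had a median of 0.65 (SD 0.052 over the genes), between 0.54 for rps10, a small subunit protein, and 0.74 for rpl5a, a large subunit protein that binds 5S ribosomal RNA. In surface fish the median was 0.49 (SD 0.042), and the lowest was 0.42 for rpl18, a large subunit protein. The small subunit protein gene rps27a had 4167, 3239 and 4143 CPM in cave UV-B libraries, against 2021, 2644 and 2807 CPM in cave controls, and its log2 fold change was 0.63 in cavefish and 0.57 in surface fish. The cave calls depended on single libraries: leaving out cave UV-B replicate 1 left 0 of the 33 called, leaving out cave UV-B replicate 4 left 3 and leaving out cave control replicate 3 left 18, while all 33 estimates stayed positive and the median stayed between 0.52 and 0.77. In surface fish all 33 were called whichever library was left out. The list holds named genes only, and in surface fish all 55 named members were called higher, against 39 of the 70 without a name. In cavefish 51 of the 55 were called higher, against 34 of the 70. Counts of calls over this list are therefore not independent evidence of a direction. With library totals all 33 estimates stayed positive in each population.

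Ribosomal protein genes with a name but a lower level were called in the same direction. There were 5 such genes, and all 5 were called higher in each population, with a median log2 fold change of 0.71 in cavefish and 0.50 in surface fish. They carry names from the same UV-B tables, so they are not an independent set. Of the 70 members without a name, 15 lay inside the range of the 33 ribosomal protein genes for the cave response, the surface response and the control difference between populations together. Of the 22 named members outside that list, 1 did so. The ranges came from these same data, and the control difference was part of the rule for members. The share of all genes inside the ranges was not computed, and what the 15 genes encode was not tested.

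The genes of the translation factor list had similar values. The 4 genes were tpt1 (translationally controlled tumor protein), eef1g (a subunit of elongation factor 1), eif5a (a hypusine-bearing factor that aids elongation) and pabpc1b (a cytoplasmic poly(A)-binding protein). All 4 were called higher in each population. The gene tpt1 had 4843, 4349 and 4640.1 CPM in cave UV-B libraries, against 2331, 2711 and 2954 CPM in cave controls, and 1856, 2033, 2046 and 2009 CPM in surface UV-B libraries, against 1373, 1482, 1391 and 1387 CPM in surface controls. Its 4 groups did not overlap in the order cave UV-B, cave control, surface UV-B and surface control. The log2 fold change of tpt1 was 0.79, SE 0.17, adjusted p = 0.00361 in cavefish and 0.50, SE 0.08, adjusted p = 0.000303 in surface fish, and the gene passed the threshold in all 15 cave settings. The cave calls of eef1g and eif5a also held in all 15 settings, and that of pabpc1b held in 11. In cavefish the log2 fold change was 0.53 for pabpc1b, 0.69 for eef1g and 0.65 for eif5a. In surface fish it was 0.35 for pabpc1b, 0.40 for eef1g and 0.34 for eif5a. Of 15 further translation factors with a name, 14 were called higher in cavefish and 14 in surface fish, and 0 lower in either. Their names come from the UV-B tables, so they are not an independent set. Of all genes tested, 12.6% were called higher and 13.8% lower in cavefish, and 13.4% higher and 15.4% lower in surface fish.

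**Figure D3:**
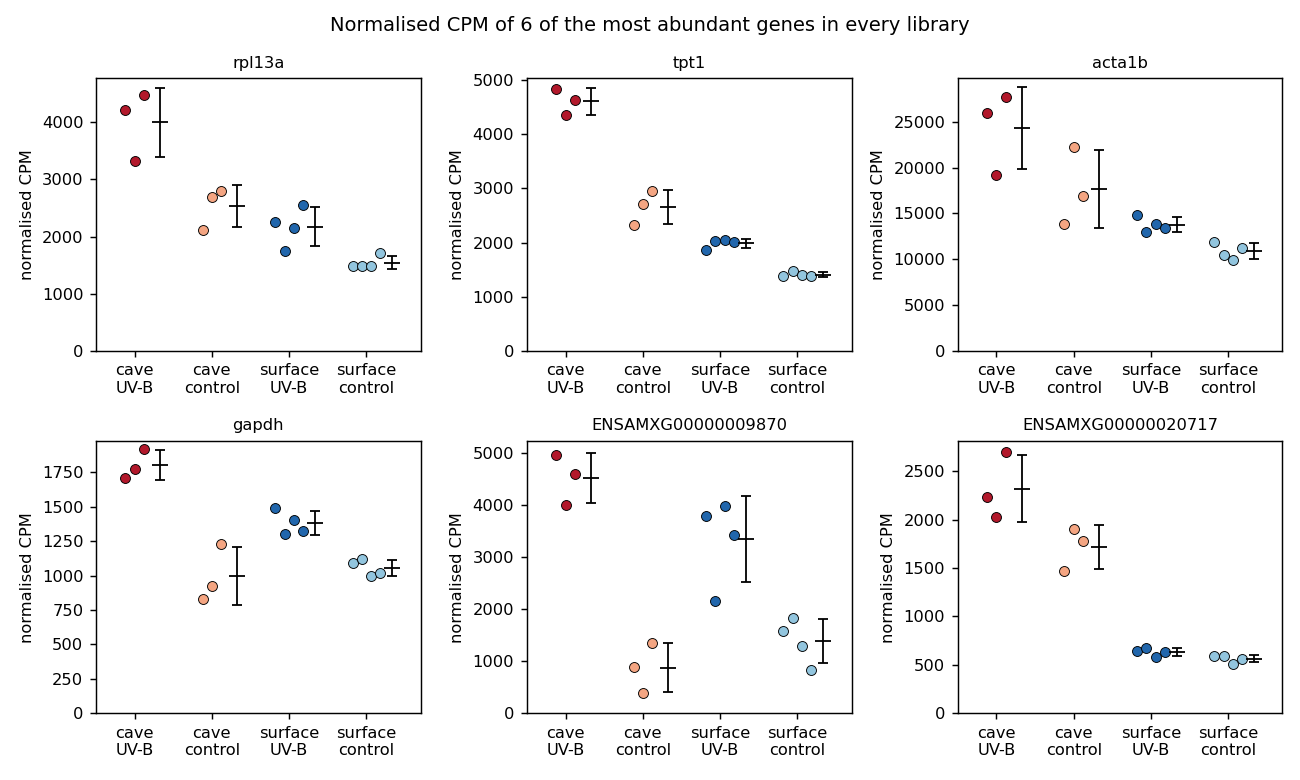
Normalised CPM of rpl13a, tpt1, acta1b, gapdh, ENSAMXG00000009870 and ENSAMXG00000020717 in every library, on linear axes from 0. Points are libraries, and the bar beside each group is its mean with the SD (n = 3 cave, n = 4 surface). The cave UV-B libraries of tpt1 lie between 4349 and 4843 CPM, above all other libraries, and those of acta1b overlap the cave controls.

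The energy genes were called higher in each population. The 3 glycolysis genes were gapdh, eno1a (enolase) and aldocb (aldolase). The gene gapdh had 1707, 1773 and 1918 CPM in cave UV-B libraries, against 832, 922 and 1230.1 CPM in cave controls. In surface fish it had 1490.3, 1298, 1401 and 1324 CPM after UV-B, against 1090.0, 1119, 994 and 1021 CPM in controls. The UV-B and control groups did not overlap in either population, and gapdh differed by 0.85, SE 0.17, adjusted p = 0.00214 on the log2 scale in cavefish and 0.38, SE 0.08, adjusted p = 0.00267 in surface fish. For eno1a it was 0.52 in cavefish and 0.31 in surface fish, and for aldocb 0.43 in cavefish and 0.37 in surface fish. The cave call of gapdh held in all 15 settings tried, and those of eno1a and aldocb held in 10. Of 9 further glycolysis genes, 6 were called higher and 0 lower in cavefish, and 8 higher and 1 lower in surface fish. Their names come from the UV-B tables, so they are not an independent set.

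The mitochondrial members were slc25a5, which exchanges ADP for ATP across the inner membrane, and atp5f1b and atp5fa1, subunits of the catalytic part of ATP synthase. The carrier slc25a5 had 4356, 3995 and 4612 CPM in cave UV-B libraries, against 1979.7, 2299.5 and 2669 CPM in cave controls, and 3244, 2762, 3147 and 3243 CPM in surface UV-B libraries, against 2264, 2272, 2125 and 2135 CPM in surface controls. Its cave and surface controls overlapped, while its UV-B libraries lay above the controls of their population. The log2 fold change of slc25a5 was 0.90, SE 0.17, adjusted p = 0.00178 in cavefish, and 0.50, SE 0.09, adjusted p = 0.000507 in surface fish. For atp5f1b it was 0.72 in cavefish and 0.35 in surface fish, and for atp5fa1 0.70 in cavefish and 0.36 in surface fish. The cave calls of slc25a5 and atp5f1b held in all 15 settings, the ones without a single library included. Of 22 further genes of this list, 17 of the 21 tested were called higher and 1 lower in cavefish, and 19 higher and 3 lower in surface fish. These too carry names from the UV-B tables and are not an independent set.

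Of the 5 muscle and cytoskeleton genes, all were called higher in surface fish and ACTB alone in cavefish. The gene acta1b encodes skeletal muscle actin and was the highest named gene. It had 25977, 19228 and 27705 CPM in cave UV-B libraries, against 13853, 22260.2 and 16909 CPM in cave controls, and 14823, 12979, 13854 and 13405 CPM in surface UV-B libraries, against 11920.2, 10447, 9919 and 11249 CPM in surface controls. The surface groups did not overlap, but cave control replicate 3 lay above cave UV-B replicate 2. The log2 fold change of acta1b was 0.46, SE 0.24, adjusted p = 0.183 in cavefish and 0.34, SE 0.09, adjusted p = 0.0108 in surface fish, where it was lost with library totals (adjusted p = 0.0933) and without either surface control replicate 3 or surface UV-B replicate 1. For mylz3, a fast muscle myosin light chain, it was 0.26 (adjusted p = 0.398) in cavefish and 0.35 (adjusted p = 0.00665) in surface fish. Of 8 further muscle genes named in the UV-B tables, 3 were called higher and 1 lower in cavefish, and 4 higher and 4 lower in surface fish. Reads of actin genes can be shared between near-identical copies, so acta1b, actb2 and ACTB are uncertain as single genes.

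Among the cytoskeleton genes, ACTB, a cytoplasmic actin, was called in each population with log2 fold changes of 0.51 in cavefish and 0.45 in surface fish. Its cave call held in 9 of 15 settings, and was lost with library totals (log2 0.20, adjusted p = 0.213), without cave control replicate 2 or 3, and without any 1 of the 3 cave UV-B libraries. The other cytoplasmic actin, actb2, had 7679, 7286 and 7047 CPM in cave UV-B libraries, against 5692, 6176 and 8164 CPM in cave controls. These groups overlapped, with cave control replicate 4 above all cave UV-B libraries. The log2 fold change of actb2 was 0.14 (adjusted p = 0.644) in cavefish and 0.35 (adjusted p = 0.00433) in surface fish, and with library totals the cave estimate was -0.17. The alpha-tubulin gene TUBA1C had 0.37 (adjusted p = 0.0963) in cavefish and 0.42 (adjusted p = 0.00245) in surface fish.

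The constitutive chaperones hspa8 and hsp90ab1, which help proteins fold in unstressed cells, were called higher in each population. The gene hspa8 had 9671, 8992 and 9646 CPM in cave UV-B libraries, against 4999, 5756 and 6453 CPM in cave controls, and 5762, 5480.2, 6282 and 6124 CPM in surface UV-B libraries, against 4655, 4821, 4311 and 4339.9 CPM in surface controls. Its UV-B libraries lay above the controls of their population, and its log2 fold change was 0.72, SE 0.18, adjusted p = 0.0109 in cavefish and 0.38, SE 0.09, adjusted p = 0.00345 in surface fish. For hsp90ab1 it was 0.59 in cavefish and 0.28 in surface fish. The ferritin heavy chain gene fth1a, whose product stores iron, had 0.78 in cavefish and 0.50 in surface fish. The RNA-binding protein gene ybx1 had 0.52 and the nucleoside diphosphate kinase gene NME2 had 0.63 in cavefish, with 0.38 for ybx1 and 0.37 for NME2 in surface fish.

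The largest UV-B difference among the members was, in each population, that of a gene without a name. ENSAMXG00000009870 had 4954, 4009 and 4602 CPM in cave UV-B libraries, against 895, 401 and 1344 CPM in cave controls. In surface fish it had 3794, 2168, 3992 and 3435 CPM after UV-B, against 1584, 1839, 1297 and 836 CPM in controls. The groups did not overlap in either population, although controls varied widely, with cave control replicate 3 and surface control replicate 4 lowest. The log2 fold changes of this gene were 2.36, SE 0.32, adjusted p = 0.000157 in cavefish and 1.27, SE 0.20, adjusted p = 0.000277 in surface fish. ENSAMXG00000017798 was the gene called lower in surface fish, with 857, 875, 836 and 686 CPM in surface UV-B libraries, against 1068, 1225, 1047 and 853 CPM in surface controls. Its surface groups overlapped (log2 fold change -0.37, SE 0.11, adjusted p = 0.0194), the call was lost without surface UV-B replicate 4 (adjusted p = 0.0801) and without surface control replicate 2, and in cavefish the value was 0.14 (adjusted p = 0.552).

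Whether the UV-B difference itself differed between populations was tested by the interaction over all 14 libraries. None of the 125 genes was called (0 higher and 0 lower), where 3.7% of the 16104 genes tested were called in either direction. At an unadjusted p under 0.05 there were 8 members (6.4%), all 8 with a larger value in cavefish, where 17.1% of all genes tested passed in either direction and 7.88% with a larger value in cavefish. DESeq2 called 1 member and limma-voom 0. The member DESeq2 called was hsp90ab1 (log2 0.29, adjusted p = 0.0237). The median interaction was 0.18 on the log2 scale, against 0.012 over all genes tested, with 116 estimates above 0 and 9 below. With library totals, however, the median was 0.05, with 82 estimates above 0 and 43 below. The lowest adjusted p by edgeR was that of gapdh (0.47, SE 0.17, adjusted p = 0.139), and the largest estimate was that of ENSAMXG00000009870 (1.09, SE 0.41, adjusted p = 0.153). Without cave control replicate 4 these 2 genes were called, with adjusted p = 0.0154 for gapdh and 0.0245 for ENSAMXG00000009870. For the 33 ribosomal protein genes the interaction lay between 0.0011 for RPS20 and 0.28 for rps3a, with a median of 0.16. With library totals it lay between -0.13 and 0.15, with a median of 0.03, 19 estimates above 0 and 14 below.

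Between populations, the rule for members used the values in controls, which are therefore given without a test. The cave mean was above the surface mean for 111 of the 125 genes, and for 88 all 3 cave controls lay above all 4 surface controls, against 1 gene with all of them below. Of the 15610 genes of at least 1 CPM in controls, 16.4% had all cave controls above and 18.3% all of them below. The median of mean log2 CPM in cave controls minus surface controls was 0.68, against -0.02 over those 15610 genes, and the members lay between -0.76 for ENSAMXG00000009870 and 1.59 for ENSAMXG00000020717. The ribosomal protein genes had a median of 0.79, and the lowest was 0.46 for rpl3. The glycolysis genes were under 0, at -0.11 for gapdh, -0.07 for eno1a and -0.20 for aldocb. The mitochondrial genes were at 0.06 for slc25a5, -0.03 for atp5fa1 and -0.10 for atp5f1b, and the muscle genes at 0.68 for acta1b and 0.66 for mylz3.

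The UV-B libraries entered the choice of members only through the scaling factors, which were computed over all 14 libraries. In the UV-B libraries the populations could be compared by a test. They are the same UV-B libraries as in the comparisons above. The control mean used for the choice pooled both populations, so a gene high in cavefish alone could pass through its cave controls. Between 116 and 124 members reached 1000 CPM in a cave control library, against 95 to 107 in a surface control library. A population difference that lasts after UV-B is in both the choice and the test, so these are not fully independent. Of the 125 genes, 110 (88%) were higher in cavefish than in surface fish after UV-B, where 21.7% of all 15510 genes tested were called higher and 22.6% lower. By edgeR 0 were called lower, with 1 at an unadjusted p under 0.05, which was ENSAMXG00000014290 (log2 fold change -0.25, SE 0.10, adjusted p = 0.0567), and DESeq2 and limma-voom each called it lower. The median log2 fold change was 0.85, and 33.9% of the 1317 genes between 100 and 1000 CPM were called higher. Of the called members 20 passed 2-fold, and the share of all genes that did so was not computed. The groups did not overlap for 112 genes, where 47.1% of all genes did so. With library totals 72.8% were called higher and 7.2% lower, where 10.1% of all genes were called higher and 42.9% lower, and the median was 0.51, with the median of all genes at -0.34.

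**Figure D4:**
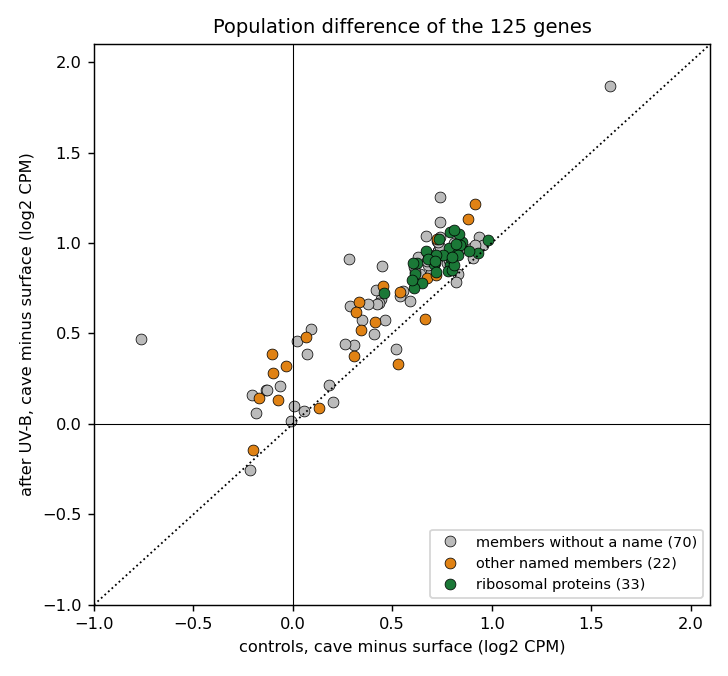
Mean log2 CPM in cavefish minus that in surface fish for each of the 125 genes, after UV-B (vertical) against controls (horizontal), where the dotted line marks equal values. The rule for the genes used the control values. ENSAMXG00000020717 stands highest in each, and ENSAMXG00000009870 is lowest in controls at -0.76.

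The largest population difference was that of ENSAMXG00000020717. It had 2229, 2028 and 2699 CPM in cave UV-B libraries, against 647, 670.2, 578 and 635 CPM in surface UV-B libraries. The groups did not overlap, and the populations differed by 1.88, SE 0.11, adjusted p = 6.37e-10 on the log2 scale. This gene passed the level of 1000 CPM through its cave controls, since its surface controls had 594, 593, 509 and 566 CPM. Its test is therefore not independent of its choice, and its difference in controls, 1.59, was also the highest of the members. ENSAMXG00000017798 followed with 1.25, and then tpt1 (1.22, SE 0.10, adjusted p = 5.58e-08) and NME2 (1.15). Each of these 4 genes was called in all 16 settings tried for this comparison. Like ENSAMXG00000020717, NME2 had under 1000 CPM in every surface control and passed the level through its cave controls. Its test is therefore not independent of its choice either.

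All 33 ribosomal protein genes were higher in cavefish after UV-B, with a median log2 fold change of 0.93 (SD 0.087 over the genes), between 0.73 for rpl3 and 1.07 for RPL27A. Some of them, RPL27A, rpl24 and rpl14 included, had a surface control mean under the level for members and passed it through their cave controls. The count of 33 and this range are therefore not independent of the choice of members. Of the 5 named ribosomal protein genes below the level, 3 were called higher in cavefish after UV-B, 0 lower and 2 were not called. The median log2 fold change of those 5 was 0.65. The laminin-receptor ribosomal protein gene rpsa had 7227, 6206 and 7287 CPM in cave UV-B libraries, against 3334, 3089, 3357 and 3426 CPM in surface UV-B libraries, a log2 fold change of 1.07. With library totals all 33 were still called, between 0.39 and 0.73. The 4 genes of the translation factor list were also all called. They lay between 0.73 for pabpc1b and 1.22 for tpt1, which is not a factor by name. For muscle, acta1b (0.82) and mylz3 (0.60) were called.

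The energy and cytoskeleton genes had values nearer 0, and with library totals several turned sign. The log2 fold change of gapdh was 0.39 (adjusted p = 0.00459), that of eno1a 0.14 (adjusted p = 0.296) and that of aldocb -0.14 (adjusted p = 0.257), where library totals gave 0.05 for gapdh, -0.20 for eno1a and -0.48 for aldocb. The carrier slc25a5 was at 0.48, and atp5fa1 at 0.32 and atp5f1b at 0.29 were called, but library totals gave -0.017 for atp5fa1 and -0.051 for atp5f1b. The call of atp5f1b held in 9 of 16 settings and was lost when either cave UV-B replicate 1 or 4, or any 1 of the 4 surface UV-B libraries, was left out. That of atp5fa1 held in 13 of 16 and was lost without cave UV-B replicate 1 or 4. The chaperone hspa8 was called at 0.68, and hsp90ab1 had 0.14 (adjusted p = 0.241). For actb2 the value was 0.33 (adjusted p = 0.0192), which library totals brought to -0.00091, and TUBA1C had 0.09 (adjusted p = 0.511), with -0.25 under library totals.

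When the level of at least 1000 CPM was applied to the UV-B libraries in place of the controls, 153 genes passed it. Of the 125 members 124 passed, and ENSAMXG00000038764 did not, with a mean of 921 CPM over the UV-B libraries, against 1095 CPM over the controls. The 29 genes that joined included 2 ribosomal protein genes, rps16 and faua. Others were krt18a.1 (a keratin, 1518 CPM over the UV-B libraries, against 921 CPM over the controls), apoba (an apolipoprotein B gene, 1275 CPM over the UV-B libraries, against 730 CPM over the controls), the small GTPase gene ran (1043 CPM over the UV-B libraries, against 745 CPM over the controls) and the mitochondrial phosphate carrier slc25a3b (1099 CPM over the UV-B libraries, against 768 CPM over the controls). These were named after their values were seen. The largest ratio was that of ENSAMXG00000009880, at 1016 CPM over the UV-B libraries, against 240 CPM over the controls.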

How the data were processed

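RNA was extracted from whole larvae and sequenced as poly(A)-selected libraries. The authors mapped reads to the A. mexicanus genome with STAR and deposited raw counts per gene, whose strand setting is not given in the sources used here. Rows that could be compared with the study's supplement held fewer counts than it lists, so totals may cover a part of the reads, and overlapping, antisense and near-identical genes are uncertain.

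Groups and replicate numbers came from the sample labels. Deposited counts were tested in R 4.3.3 with edgeR 4.0.16 (TMM, filterByExpr, quasi-likelihood test, Benjamini-Hochberg over all genes tested, adjusted p under 0.05), each comparison on its own libraries and the interaction on all 14. A standard error is the absolute log2 fold change over the square root of F. CPM values were scaled by the TMM factors of the whole set of 14, with a prior count of 2 before log2. Levels compare libraries, not genes, since they are not per length. Alternatives were other scalings and filters, DESeq2 1.42.0, limma-voom (limma 3.58.1), a replicate block, single libraries left out and other member thresholds.

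The members, gene lists and tests were chosen with earlier results of these data known. Named genes were the 15 highest in controls, the 8 highest and lowest called without overlap in each comparison, all members of lists of up to 8 genes, the highest, middle and lowest of longer lists, the genes beside the thresholds and rpl13a, with at most 4 unnamed genes per comparison; others are named as examples. For 1 gene that these rules name, values are not reported here. None of the IDs (0) matched the reference gene table, and no gene sequences or coordinates were used here.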

Additional observations from a re-analysis of the deposited data

Results flagged for a closer look

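Dixon's criterion on the gap over the range was applied to 106 surface groups of 4, from 52 named genes and the share of counts. It flagged 6 groups. The criterion flags about 1 in 20 independent groups by chance, but these groups share libraries and are not independent. Whether chance gave the flags was not tested. The 6 were genes named above, each with a surface control library apart from the other 3. In 5 of them the library was surface control replicate 4, which was the highest: 1790 CPM for RPS20 (others between 1500 and 1530), 1660 CPM for rpl5a (1490 to 1520), 1240 CPM for rpl18 (1080 to 1100), 1580 CPM for rps10 (1370 to 1410) and 1710 CPM for rpl13a (1480 to 1490). All 5 are ribosomal protein genes and share that library. For tpt1 it was surface control replicate 2, with 1480 CPM against 1370 to 1390 CPM in the others.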

How the results depend on the processing

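Percentages here are of the members. Leaving out single libraries moved the share called higher between 61.6% and 81.6% in surface fish (lower, 0% to 1.6%), between 9.6% (without cave UV-B replicate 1) and 72.8% in cavefish, between 0% and 1.6% for the interaction, and between 83.2% and 89.6% for cave against surface after UV-B (lower, 0% to 0.8%), and the medians between 0.36 and 0.49, 0.49 and 0.72, 0.06 and 0.31, and 0.78 and 0.97 in the same order. With library totals the share lower was 3.2% in surface fish (median 0.23), the share higher 40% in cavefish (median 0.29), and the share lower 7.2% after UV-B (median 0.51). There the sign turned for ENSAMXG00000020313 (-0.28), eno1a (-0.20), TUBA1C (-0.25), atp5f1b (-0.051), atp5fa1 (-0.017) and actb2 (-0.00091). DESeq2 gave 0.8% higher for the interaction and 0.8% lower after UV-B, as did limma-voom, testing every gene with at least 1 count and the replicate block for the second. With members at 500 CPM (213 genes) the share lower was 1.41% in surface fish, 0.939% in cavefish, 0.469% for the interaction and 4.23% after UV-B, with members at 2000 CPM (40 genes) it was 0% in surface fish, and with members chosen in the UV-B libraries 1.96% after UV-B. The members then took 51.3%, 25.8% and 47.1% of cave UV-B counts, 44.3% and 22.5% of cave control counts, 40.5%, 19.9% and 36.2% of surface UV-B counts, and 36.2%, 18% and 32.1% of surface control counts. Without the most abundant member they took 31.7% of surface UV-B and 28.2% of surface control counts. To look for pairing, each gene's group mean was subtracted, and the remaining deviations of UV-B and control libraries were correlated over genes. Deviations of same-numbered libraries correlated between -0.02 and 0.09 in surface fish and at 0.15 and 0.06 in cavefish. Those of different-numbered libraries correlated between -0.11 and 0.09 in surface fish and between -0.13 and 0.09 in cavefish. So few pairs cannot show whether the numbers pair libraries. In cavefish the replicate block kept replicates 2 and 4 only, and after UV-B it matched the populations by number alone. The block gave 77.6% higher in surface fish, 81.6% in cavefish and 88% after UV-B. Outside the ribosomal protein list, an alternative chosen after seeing the data, 66.3%, 56.5% and 83.7% were higher in the same order. The cause of these shifts was not tested.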
